A study of Mus musculus with 12 samples.

Results

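The 38 genes described here are markers of microglia, border macrophages, monocytes and neutrophils, looked up by name in RNA-seq libraries of selected mouse astrocytes. They were sorted by role: 27 microglial genes, of which 10 mark microglial identity and 17 are shared with other myeloid cells, 6 border macrophage genes, and 5 monocyte or neutrophil genes. The files listed 48709 genes, 15571 passed the filter on low counts, and all 38 were among them; 37 were found by symbol and Itgam by its Ensembl identifier.

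RNA was taken from cells positive for ACSA-2, an astrocyte surface antigen, isolated 24 h after tMCAO, a stroke model of temporary blockage of the middle cerebral artery. Both hemispheres of 6 mice were sequenced, so that the ipsilateral library comes from the occluded side and the contralateral library from the opposite side of the same brain. The 4 groups hold 3 libraries each: KO ipsilateral and KO contralateral from mice 295, 298 and 300, and WT ipsilateral and WT contralateral from mice 296, 297 and 474. Values below follow this order of mice. All mice were C57BL/6, at postnatal day 90 to 120, carried Gfap-CreERT2+/-, a tamoxifen-inducible Cre recombinase under the promoter of the astrocyte filament gene Gfap, and were homozygous for floxed alleles. The mice labelled Nhe1 Astro-KO (KO) had received tamoxifen and those labelled wild-type (WT) corn oil. The drug and the deletion therefore cannot be told apart, and WT mice carry the Cre and the floxed alleles too. No mouse without occlusion was included among these groups.

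Microglia are the resident macrophages of the brain parenchyma; they depend on signalling through the receptor Csf1r and on the transcription factor PU.1, encoded by Spi1. Border macrophages live in the meninges, along vessels and in the choroid plexus, whereas monocytes and neutrophils circulate in blood and enter the brain after injury. Surface and sensing genes such as P2ry12 and Tmem119 mark microglia at rest, and genes of the phagosome, of complement and of innate sensing are carried by most myeloid cells.

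Total counts ran between 11187723 and 15780600 per library. Astrocyte markers were abundant throughout: 10 of them summed to between 9221 and 14390 TPM (transcript abundance scaled for gene length and library size) in KO ipsilateral, 14290 and 16470 TPM in KO contralateral, 4903 and 6331 TPM in WT ipsilateral, and 8882 and 12440 TPM in WT contralateral libraries. The 17 shared myeloid genes summed to between 710.5 and 5479 TPM over the 12 libraries, so transcripts of other cells were present in the selected fraction. Oligodendrocyte markers moved with genotype, summing to between 4593 and 6821 TPM in KO contralateral libraries and between 13170 and 15020 TPM in WT contralateral libraries. None of the 7 lymphocyte markers passed the filter, their highest count being 9. In RNA of a mixed fraction, fewer cells of a type and less RNA per cell cannot be told apart. Libraries that stood apart came from a KO mouse and a WT mouse. KO ipsilateral 300 held the least of 8 of the 10 identity genes and of 6 of the 17 shared genes. Both libraries of WT mouse 296 held the most of the neutrophil genes S100a8 and S100a9.

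Over KO and WT mice together, genes shared by myeloid cells were higher on the occluded side, while most genes of microglial identity did not pass the test. In the mean of the KO and WT responses, 18 of the 38 genes were called higher and 0 lower at an adjusted p under 0.05 (edgeR quasi-likelihood test, Benjamini-Hochberg adjustment over all genes tested), against 17.1% of all genes called higher and 16.1% called lower. These were 14 of the 17 shared genes, 1 of the 10 identity genes, 1 of the 6 border macrophage genes and 2 of the 5 monocyte or neutrophil genes. The median log2 fold change was 1.35 over the shared genes, 0.12 over the identity genes, 0.285 over the border macrophage genes and 1.58 over the monocyte and neutrophil genes, beside -0.03 over all genes tested. Markers of other cells moved in the same comparison: 6 of 10 astrocyte markers were called lower (8 of 10 in WT mice and 0 in KO mice), 3 of 10 oligodendrocyte markers higher and 3 of 6 mural markers lower, with median log2 fold changes of -0.58, 0.585 and -0.28. Their part in the myeloid differences was not tested.

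**Figure D1:**
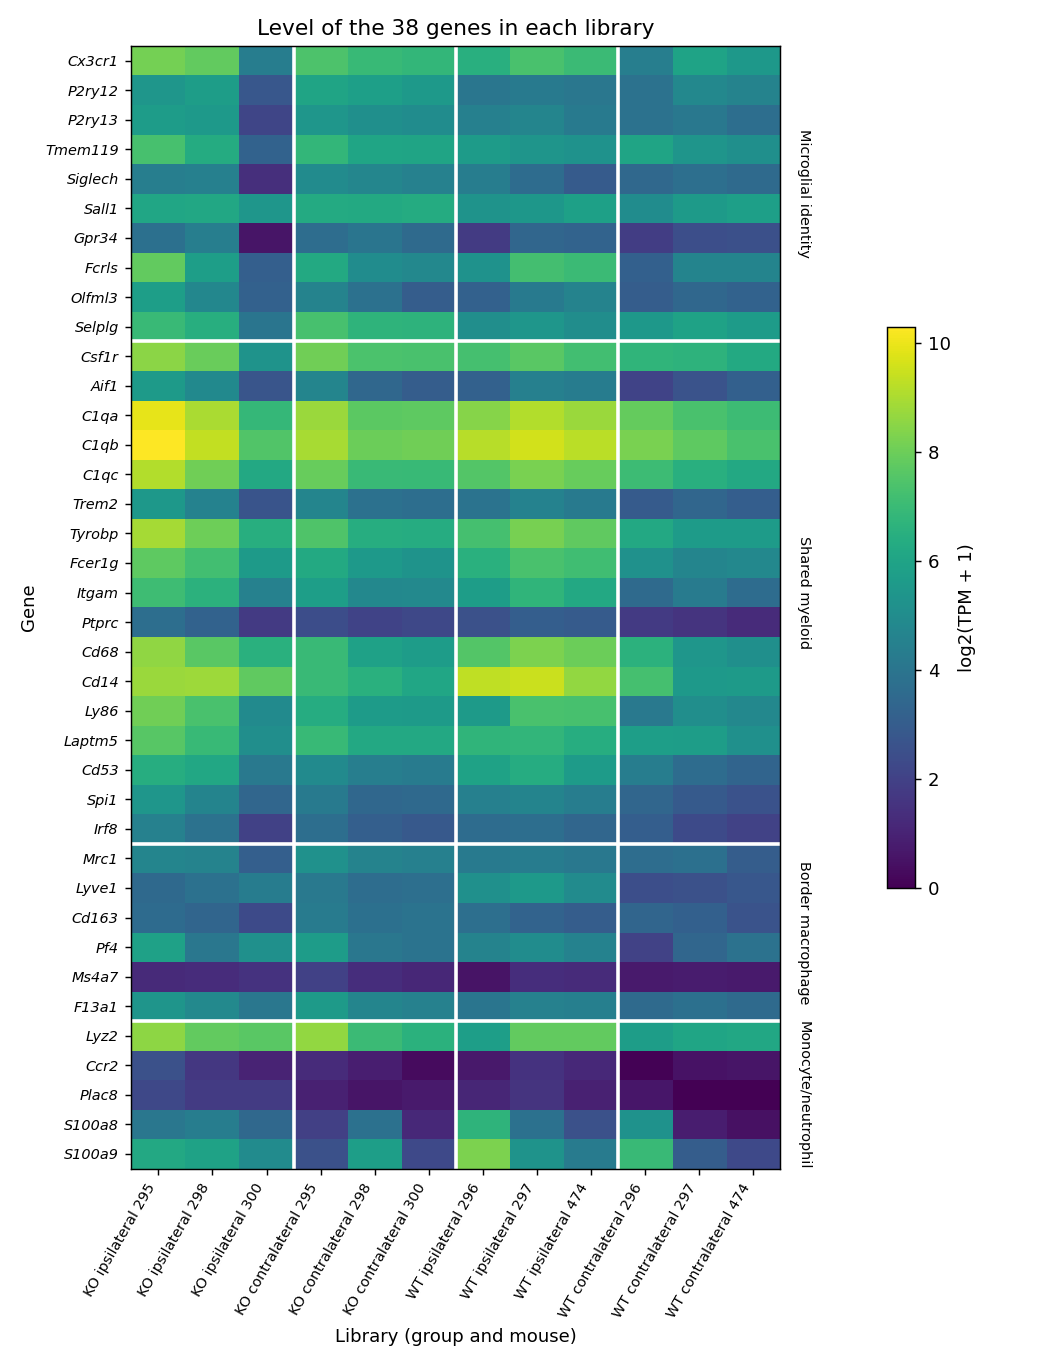
Level of each gene as log2(TPM + 1), one row per gene and one column per library, with white lines between groups and between sets of genes. KO ipsilateral 300, the third column, is darker than its group over the microglial rows, and S100a8 and S100a9 are brightest in the WT libraries of mouse 296.

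Within genotypes, KO mice gave 1 call, higher on the ipsilateral side, against 5.45% of all genes called higher and 0.841% called lower. WT mice gave 11, all higher, against 9.61% of all genes called higher and 9.54% called lower. With the mouse as a block, which compares the hemispheres of the same animal, the counts were 10 in KO mice (9 higher and 1 lower), where 10.9% of all genes were called higher and 5.1% lower, and 25 in WT mice, where 14.7% were called higher. Without the library KO ipsilateral 300, KO mice gave 5 calls (1.65% of all genes called higher), and without that library and both libraries of mouse 296, a choice made after seeing the data, they gave 14 (5.1% called higher). In WT mice the count was 5 without WT ipsilateral 297, WT contralateral 297 or WT contralateral 474 (4.79%, 5.07% and 5.68% of all genes called higher), 2 without mouse 297 (1.93%) and 3 without mouse 474 (3.33%), so that calls over all genes were fewer in the same fits. It was 22 without KO ipsilateral 300 (11.7%) and 20 without mouse 300 (9.82%). With edgeR the difference between the KO and WT responses was not called for any of the 38 genes, nor for any other gene (0% of all genes), and at an unadjusted p under 0.05 it passed for 3 of the 38 and 763 of all genes (4.9%). DESeq2's independent filtering left 34 of the 38 without an adjusted p, and the other 4 were not called. With its p-values adjusted over all genes, a choice made after seeing the data, DESeq2 called 1 of the 38, Lyve1 (0.045% of all genes), as did the fit to log2(TPM + 0.1) (0.0122% of all genes). The larger number of calls in WT mice is therefore not shown to be a difference between the genotypes.

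Ipsilateral over contralateral ratios within a mouse showed where the counts differed. All 17 shared genes were higher on the ipsilateral side in mice 295, 298, 296, 297 and 474, and 6 of the 17 in mouse 300. Identity genes were split in every mouse but 300: 6 and 7 of 10 were higher in KO mice 295 and 298, and 7, 6 and 5 of 10 in WT mice 296, 297 and 474. In KO mouse 300 only 1 of 10 was higher, with a median log2 ratio of -2.391.

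**Figure D2:**
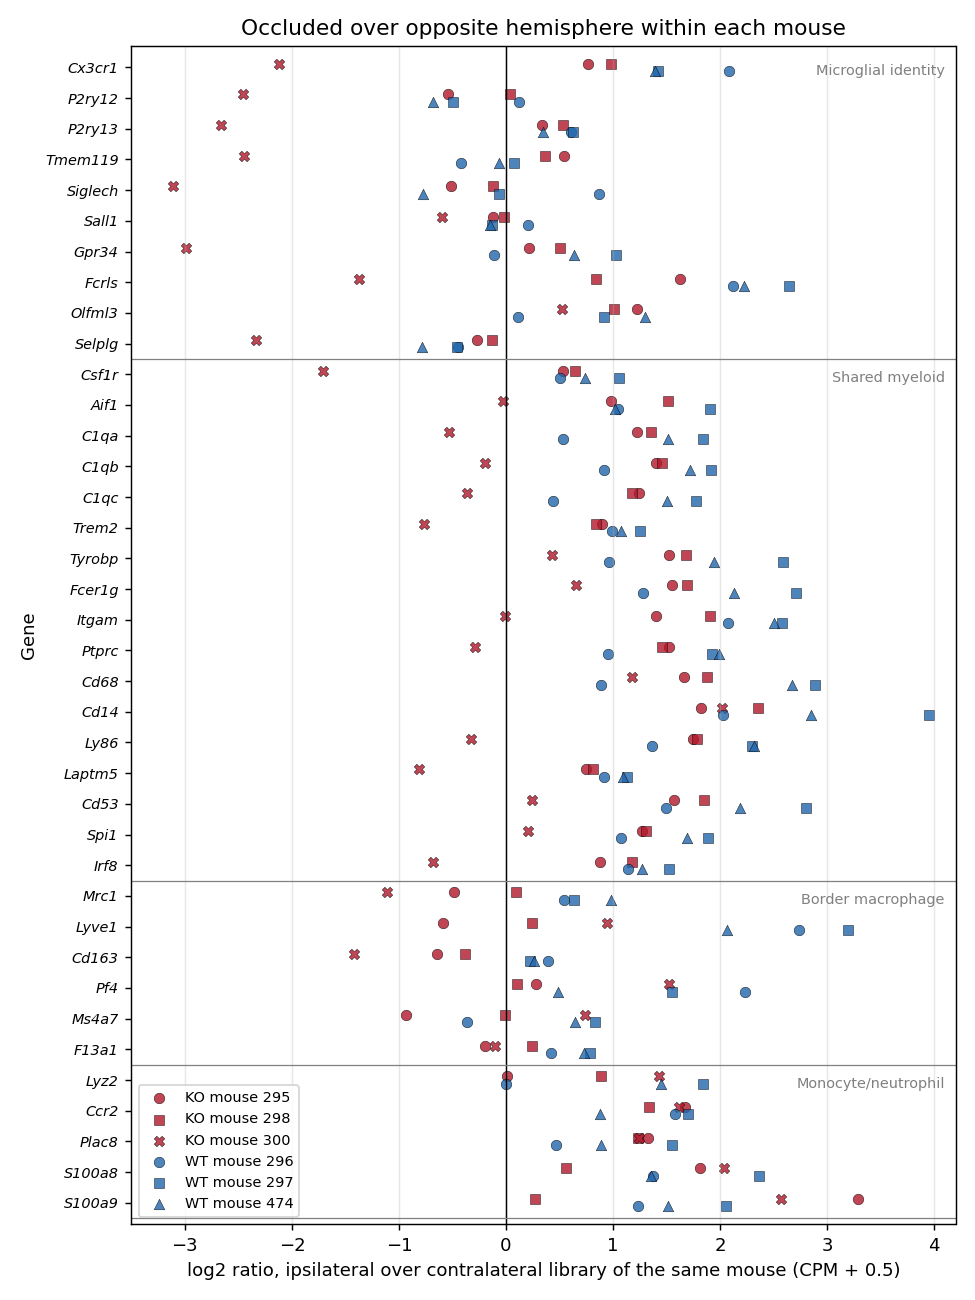
Log2 ratio of the ipsilateral over the contralateral library of the same mouse, from CPM (counts scaled to library size) with 0.5 added, one symbol per mouse. Shared myeloid genes lie right of 0 in 5 mice, and identity genes lie on both sides of 0 in the same mice. KO mouse 300 (crosses) lies lowest for most microglial genes.

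Among the identity genes, Cx3cr1, the receptor for the neuronal chemokine fractalkine, had the highest mean level. It had 279.8, 224 and 19.61 TPM in KO ipsilateral libraries, against 171.9, 120.3 and 110.5 TPM in KO contralateral libraries. In WT mice it had 89.88, 159.4 and 129.5 TPM on the ipsilateral side, against 20.19, 62 and 43.81 TPM on the contralateral side. All WT ipsilateral libraries lay above all WT contralateral ones, while the KO groups overlapped through mouse 300. The log2 fold change was 1.01 ± 0.45 (SE) over both genotypes (adjusted p = 0.1061), 0.46 in KO mice (adjusted p = 0.6674) and 1.55 in WT mice (adjusted p = 0.1148).

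Fcrls, an Fc receptor-like scavenger receptor typical of mouse microglia, was the identity gene that passed the test. Its level was 226, 53.15 and 7.776 TPM in KO ipsilateral libraries, against 76.17, 31.19 and 26.99 TPM in KO contralateral libraries. WT ipsilateral libraries had 37.41, 146.3 and 129.7 TPM, against 7.795, 23.93 and 24.28 TPM in WT contralateral libraries. Fcrls was higher on the ipsilateral side in 5 of 6 mice, by a log2 fold change of 1.81 ± 0.63 (SE; adjusted p = 0.04417). In WT mice alone it was 2.43 (adjusted p = 0.08241), and with the mouse as a block 2.39 (adjusted p = 0.01024). The call over both genotypes held in 5 of 18 fits that leave out a library or a mouse, with adjusted p-values up to 0.1676; it held without KO ipsilateral 298 or 300, WT ipsilateral 296, KO contralateral 295 or mouse 300.

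Olfml3, a secreted matrix protein of microglia, was higher on the ipsilateral side in all 6 mice. KO ipsilateral libraries held 53.23, 25.84 and 8.29 TPM of it, against 23.61, 13.5 and 7.279 TPM in KO contralateral libraries; WT ipsilateral libraries held 8.092, 18.18 and 23.51 TPM, against 7.204, 9.978 and 8.375 TPM in WT contralateral libraries. The groups overlapped across mice, and the log2 fold change of 0.997 ± 0.39 (SE) had an adjusted p of 0.06874. With the mouse as a block the adjusted p was 0.003261 over both genotypes.

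P2ry12, the ADP receptor that steers microglial processes, had 40.99, 52.29 and 5.906 TPM in KO ipsilateral libraries against 62.63, 54.34 and 44.51 TPM in KO contralateral libraries, and 15.42, 17.78 and 16.07 TPM in WT ipsilateral libraries against 13.64, 26.56 and 23.36 TPM in WT contralateral libraries. Selplg, a ligand of selectins, was lower on the ipsilateral side in all 6 mice: 125.1, 87.75 and 14.82 TPM in KO ipsilateral against 158.4, 102.3 and 98.98 TPM in KO contralateral libraries, and 33, 41.26 and 31.81 TPM in WT ipsilateral against 43.69, 59.82 and 49.32 TPM in WT contralateral libraries. The P2ry12 groups overlapped within both genotypes, and the Selplg groups overlapped in KO but not in WT mice. Neither passed the test over both genotypes, where P2ry12 had a log2 fold change of -0.51 (adjusted p = 0.2851) and Selplg one of -0.57 (adjusted p = 0.2153). Both were singled out after their values were seen.

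The other identity genes were P2ry13, a related nucleotide receptor, Tmem119, a membrane protein, Siglech, a sialic acid-binding lectin, Gpr34, a lysophospholipid receptor, and Sall1, a transcription factor. Over both genotypes their log2 fold changes were 0.28 for P2ry13, -0.03 for Tmem119, -0.30 for Siglech, 0.35 for Gpr34 and -0.14 for Sall1, and none was called. Sall1 differed in pattern from the rest, with between 31.36 and 80.32 TPM in all libraries and 41.36 TPM in KO ipsilateral 300. With group means removed, its log2 level over the 12 libraries had a correlation of 0.53 with the mean of the other identity genes. The values of those genes ran from 0.79 for Olfml3 to 0.985 for Selplg. Without that removal the correlation was 0.60 for Sall1, and from 0.645 for Olfml3 to 0.963 for P2ry13 among the others. These correlations describe libraries that share mice and depth, and those without the removal share groups too.

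The shared set begins with complement. C1qa, C1qb and C1qc encode the chains of C1q, the recognition protein of the classical pathway, and lie side by side on chromosome 4 of mm10 (C1qb at chr4:136880129-136886187, C1qc at chr4:136889804-136893065 and C1qa at chr4:136895917-136898803, all on the minus strand). C1qb had the highest mean level of all 38 genes, with 1253, 649.7 and 182.1 TPM in KO ipsilateral libraries against 494.2, 251.7 and 266.2 TPM in KO contralateral libraries. WT ipsilateral libraries had 586.2, 767.9 and 602.8 TPM, against 299, 212 and 161.9 TPM in WT contralateral libraries. It was higher on the ipsilateral side in 5 of 6 mice, mouse 300 being the exception. Its log2 fold change was 1.32 ± 0.34 (SE; adjusted p = 0.01305), with 1.14 for C1qa (adjusted p = 0.03532) and 1.10 for C1qc (adjusted p = 0.03494).

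Of the summed C1q TPM, which ran from 368.8 to 2769, C1qa made up between 30.94% and 37.03%, C1qb between 42.34% and 52.46%, and C1qc between 16.6% and 21.48%. Within every mouse the proportions shifted the same way: the share of C1qb was higher on the ipsilateral side in 6 of 6 mice, and the shares of C1qa and C1qc were lower in 6 of 6. For C1qb these were 45.24%, 45.68% and 49.18% in KO ipsilateral against 42.34%, 42.87% and 44.37% in KO contralateral libraries, and 52.46%, 47.52% and 47.5% in WT ipsilateral against 45.21%, 45.88% and 43.9% in WT contralateral libraries. The 3 shares of a library sum to 100%, so they are not independent, and the shift was seen before it was counted.

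Promoter windows were available for 29 of the 38 genes (RefSeq, GRCm38.p6) and are shown for 5 genes to set sequences that carry a PU.1 motif beside sequences of risen genes that do not. GAGGAAGT, a purine-rich motif bound by PU.1, was searched on both strands in the 250 bases before the start, and was found for 3 of the 29 genes, C1qc, Pf4 and S100a8. It was in 3 of the 36 windows of these genes and in 2.44% of all 32851 promoter windows of that length. A composite motif of ETS and IRF factors, whose letters can overlap those of the first, was in 0 of the 36 and in 2.3% of all windows. Capitals mark the PU.1 motif, here on the opposite strand, 195 bases before the RefSeq start of C1qc, 10 before that of Pf4 and 172 before that of S100a8. Bases inside the annotated gene were left out of the printed windows, and a match describes letters only.
C1qc, chr4:136893066-136893164, minus strand: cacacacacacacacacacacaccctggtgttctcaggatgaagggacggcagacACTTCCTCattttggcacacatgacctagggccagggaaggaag
Pf4, chr5:90772185-90772434, plus strand: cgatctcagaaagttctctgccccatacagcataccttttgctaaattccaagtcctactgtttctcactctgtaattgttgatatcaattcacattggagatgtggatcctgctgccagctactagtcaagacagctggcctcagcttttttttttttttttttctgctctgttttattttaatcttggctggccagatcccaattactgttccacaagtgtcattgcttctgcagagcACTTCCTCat
S100a8, chr3:90668821-90668977, plus strand: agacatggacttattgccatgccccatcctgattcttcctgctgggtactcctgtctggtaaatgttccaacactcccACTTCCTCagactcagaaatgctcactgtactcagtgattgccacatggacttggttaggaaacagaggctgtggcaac
Fcer1g, chr1:171234366-171234599, minus strand: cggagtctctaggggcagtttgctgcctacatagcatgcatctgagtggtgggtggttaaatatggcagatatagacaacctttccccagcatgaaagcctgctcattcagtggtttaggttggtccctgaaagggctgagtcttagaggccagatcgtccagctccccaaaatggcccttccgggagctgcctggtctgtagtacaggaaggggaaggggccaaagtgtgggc
Cd53, chr3:106790150-106790399, minus strand: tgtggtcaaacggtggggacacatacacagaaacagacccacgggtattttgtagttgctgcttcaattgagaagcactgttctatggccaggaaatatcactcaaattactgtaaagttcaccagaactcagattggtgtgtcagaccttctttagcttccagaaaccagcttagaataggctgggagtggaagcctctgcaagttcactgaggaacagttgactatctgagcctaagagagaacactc

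Both signalling adaptors of the set, Fcer1g and Tyrobp, were called higher over both genotypes. Fcer1g, the common gamma chain of Fc receptors, had 213.6, 141.7 and 47.46 TPM in KO ipsilateral libraries against 74.68, 45.35 and 37.8 TPM in KO contralateral libraries, and 92.22, 162.5 and 139.6 TPM in WT ipsilateral libraries against 35.64, 24.46 and 27.05 TPM in WT contralateral libraries. It was higher on the ipsilateral side in all 6 mice, and the WT groups did not overlap. Its log2 fold change was 1.80 ± 0.30 (SE) over both genotypes (adjusted p = 0.001206), 1.47 in KO mice (adjusted p = 0.05519) and 2.13 in WT mice (adjusted p = 0.00659). With the mouse as a block the KO value was 1.35 (adjusted p = 0.02322).

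Tyrobp, the adaptor of Trem2, was likewise higher in all 6 mice. KO ipsilateral libraries had 483.5, 258.6 and 87.07 TPM against 174.3, 84.29 and 81.99 TPM in KO contralateral libraries, and WT ipsilateral libraries 149.9, 289.4 and 221.2 TPM against 73.15, 48.48 and 49.54 TPM in WT contralateral libraries. The log2 fold change was 1.65 ± 0.34 (SE; adjusted p = 0.004128). The receptors for Csf1 and for lipids were not called, although both were higher on the ipsilateral side in 5 of 6 mice. Trem2 had a log2 fold change of 0.89 (adjusted p = 0.07216) and Csf1r one of 0.50 (adjusted p = 0.3034). With the mouse as a block Trem2 passed (adjusted p = 0.02371) and Csf1r did not.

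Itgam and Cd53 were called higher on the ipsilateral side. Itgam, the integrin chain also known as CD11b, had 134.2, 96.08 and 21.93 TPM in KO ipsilateral libraries against 52.94, 27.33 and 27.65 TPM in KO contralateral libraries, and 52.29, 105.7 and 73.27 TPM in WT ipsilateral libraries against 10.64, 18.46 and 11.33 TPM in WT contralateral libraries. Cd53, a tetraspanin of leukocytes, had 84.24, 70.41 and 16.97 TPM in KO ipsilateral libraries against 29.09, 20.08 and 18.21 TPM in KO contralateral libraries, and 59.47, 81.09 and 49.06 TPM in WT ipsilateral libraries against 19.78, 11.35 and 8.9 TPM in WT contralateral libraries. For both genes the ipsilateral and contralateral WT groups were apart and the KO groups overlapped through mouse 300. Log2 fold changes over both genotypes were 1.89 ± 0.35 (SE) for Itgam (adjusted p = 0.002359) and 1.83 ± 0.32 (SE) for Cd53 (adjusted p = 0.001733).

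Ptprc, the leukocyte phosphatase CD45, had 12.22, 8.429 and 2.342 TPM in KO ipsilateral libraries against 4.35, 3.171 and 3.693 TPM in KO contralateral libraries, and 4.798, 7.339 and 6.659 TPM in WT ipsilateral libraries against 2.327, 1.918 and 1.395 TPM in WT contralateral libraries. WT libraries were again apart by side, and the counts of Ptprc were low against its RPKM. For Ptprc the log2 fold change was 1.42 ± 0.29 (SE; adjusted p = 0.003666).

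Lysosomal Cd68 was higher on the ipsilateral side in all 6 mice. It had 380.2, 202.2 and 91.78 TPM in KO ipsilateral libraries against 124.8, 57.71 and 51.17 TPM in KO contralateral libraries, and 184.3, 302.6 and 251 TPM in WT ipsilateral libraries against 95.84, 41.67 and 33.97 TPM in WT contralateral libraries. Its log2 fold change was 1.85 ± 0.36 (SE; adjusted p = 0.00279). Laptm5, another lysosomal membrane protein, had a log2 fold change of 0.76 and was not called (adjusted p = 0.06912). It passed with the mouse as a block (adjusted p = 0.03493).

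Among all 38 genes, Cd14 was the one called in both genotypes. This co-receptor for bacterial lipopolysaccharide had 422.9, 439.1 and 218.2 TPM in KO ipsilateral libraries, against 124.2, 90.81 and 68.05 TPM in KO contralateral libraries. In WT mice it had 636.6, 699 and 394.5 TPM on the ipsilateral side, against 150.1, 46.41 and 48.02 TPM on the contralateral side. Ipsilateral and contralateral libraries did not overlap in either genotype, and mouse 300 was no exception. The log2 fold change was 2.07 ± 0.45 (SE) in KO mice (adjusted p = 0.02357) and 2.78 ± 0.46 (SE) in WT mice (adjusted p = 0.002837). The KO call was lost in 7 of the fits that leave out a library or mouse, all of them KO: without KO contralateral 295, 298 or 300, without KO ipsilateral 295 and without mice 295, 298 or 300, where the log2 fold change stayed between 1.89 and 2.32.

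Cd14 followed the other microglial genes least. With group means removed, its correlation with the identity mean over the 12 libraries was 0.26, against 0.60 for Cd68. For the remaining shared genes the correlation lay between 0.77 and 0.96. Without that removal it was 0.135 for Cd14, 0.347 for Cd68 and between 0.485 and 0.947 for the remaining shared genes. The share of Cd14 in the summed TPM of the 17 shared genes was higher on the ipsilateral side in all 6 mice: 7.719%, 13.5% and 22.27% in KO ipsilateral against 5.409%, 7.3% and 5.635% in KO contralateral libraries, and 23.94%, 18.32% and 13.82% in WT ipsilateral against 12%, 5.359% and 6.759% in WT contralateral libraries.

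Ly86, also called MD-1, which pairs with a Toll-like receptor homologue, had 264.8, 161.5 and 29.13 TPM in KO ipsilateral libraries against 81.26, 48.59 and 47.18 TPM in KO contralateral libraries, and 47.68, 161.4 and 157.8 TPM in WT ipsilateral libraries against 16.87, 32.97 and 27.02 TPM in WT contralateral libraries. Ly86 had a log2 fold change of 1.83 ± 0.43 (SE; adjusted p = 0.008204). The calcium-binding protein Aif1, known as Iba1, was called at 1.30 (adjusted p = 0.04903).

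Both myeloid transcription factors of the set were called. Spi1 had 41.76, 23.75 and 9.62 TPM in KO ipsilateral libraries against 17.74, 9.806 and 10.55 TPM in KO contralateral libraries, and 21.18, 24.29 and 19.6 TPM in WT ipsilateral libraries against 9.411, 6.446 and 4.998 TPM in WT contralateral libraries. Spi1 had a log2 fold change of 1.35 ± 0.29 (SE; adjusted p = 0.004614), and that of Irf8, the interferon regulatory factor of macrophages, was 1.11 (adjusted p = 0.03339). In KO mice 1 of the 17 shared genes had all ipsilateral libraries above all contralateral ones (18.6% of all genes), and in WT mice 16 of 17 (17.3% of all genes). Of the 14 calls over both genotypes, 9 held in all 18 fits that leave out a library or a mouse; C1qb held in 17, C1qa and C1qc in 8, Irf8 in 6 and Aif1 in 4.

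Levels of identity genes relative to shared genes were compared within libraries, leaving out Sall1 and Cd14 for their different patterns, a choice made after seeing them. The summed TPM of the other 9 identity genes came to 966, 609.7 and 70.4 in KO ipsilateral libraries against 688.7, 460.4 and 414.5 in KO contralateral libraries, and to 276.3, 469.1 and 400.6 in WT ipsilateral libraries against 182, 256.2 and 211 in WT contralateral libraries. As a percentage of the summed TPM of the other 16 shared genes, this was 19.11%, 21.67% and 9.244% in KO ipsilateral against 31.7%, 39.93% and 36.38% in KO contralateral libraries, and 13.66%, 15.05% and 16.28% in WT ipsilateral against 16.53%, 31.25% and 31.86% in WT contralateral libraries. The percentage was lower on the ipsilateral side in all 6 mice, least so in mouse 296. KO ipsilateral 300 had the lowest identity sum of the 12 libraries and also the lowest percentage. That library held 9768 TPM of astrocyte and 11230 TPM of oligodendrocyte markers, against 9221 and 14390 TPM of astrocyte and 7447 and 8309 TPM of oligodendrocyte markers in KO ipsilateral 295 and 298; their part in its low microglial levels was not tested.

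**Figure D3:**
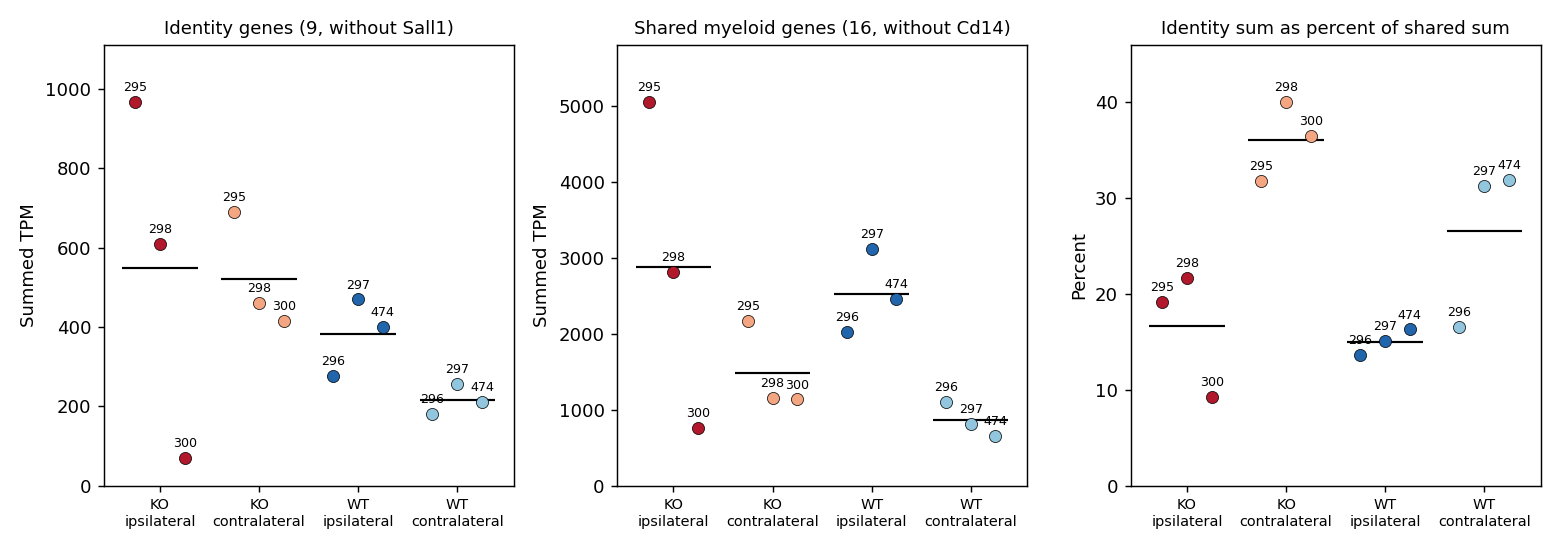
Summed TPM of 9 identity genes (left) and of 16 shared myeloid genes (middle), and the first as a percentage of the second (right), one point per library labelled by mouse, with the group mean as a line. The percentage lies between 9.244 and 21.67 in ipsilateral libraries and between 16.53 and 39.93 in contralateral libraries.

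Among border macrophage genes, the one called after occlusion was Lyve1 (chr7:110850607-110863239, minus strand, mm10), a hyaluronan receptor that also marks lymphatic endothelium. It had 10.53, 13.16 and 19.01 TPM in KO ipsilateral libraries against 16.87, 11.72 and 12.37 TPM in KO contralateral libraries. In WT mice it had 34.43, 46.89 and 30.03 TPM on the ipsilateral side, against 4.533, 4.853 and 6.008 TPM on the contralateral side. WT ipsilateral libraries were the highest of all 12 and WT contralateral libraries the lowest, with both KO groups in between and overlapping. The log2 fold change was 0.27 ± 0.30 (SE) in KO mice (adjusted p = 0.5943) and 2.80 ± 0.32 (SE) in WT mice (adjusted p = 0.0008975). The WT call held with any library or mouse left out, with adjusted p-values between 0.000551 and 0.01751.

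Lyve1 differed between KO and WT on the ipsilateral side, with a log2 fold change of -1.26 ± 0.30 (SE; adjusted p = 0.02941), the one call among the 38 genes there, where 1.98% of all genes were called lower and 4.33% higher. The call held in 11 of 18 fits that leave out a library or mouse, with adjusted p-values up to 0.1733. It was lost without WT ipsilateral 296 or 297, without KO ipsilateral 295 or 298, and without mice 297, 295 or 298, as well as when only those groups entered the fit. On the contralateral side Lyve1 went the other way, with a log2 fold change of 1.27 ± 0.31 (SE) and an adjusted p of 0.07283. The difference between the KO and WT responses was -2.54 ± 0.43 (SE) on the log2 scale; its unadjusted p of 7.738e-05 was the smallest of all genes, but adjusted over them it was 0.9485. The log2 difference lay between -3.05 and -2.13 in the fits that leave out a library or mouse, with no call (adjusted p from 0.1084). It was called at -2.78 in the fit to log2(TPM + 0.1) (limma, adjusted p = 0.04468) and at -2.55 by DESeq2 with p-values adjusted over all genes (adjusted p = 0.000263); over the alternatives the adjusted p reached 1.

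Pf4, a chemokine of platelets and border macrophages, had the highest mean level of the set and was higher on the ipsilateral side in all 6 mice. KO ipsilateral libraries had 58.79, 16.14 and 34.88 TPM against 50.03, 15.81 and 13.96 TPM in KO contralateral libraries, and WT ipsilateral libraries 23.29, 31.22 and 22.62 TPM against 3.059, 9.638 and 13.75 TPM in WT contralateral libraries. Its log2 fold change of 1.06 ± 0.43 (SE) was not called (adjusted p = 0.07726), but passed with the mouse as a block (adjusted p = 0.01993). F13a1, a clotting factor chain made by macrophages, had 39.96, 27.38 and 15.78 TPM in KO ipsilateral libraries against 47.97, 24.54 and 21.73 TPM in KO contralateral libraries, and 15.13, 21.74 and 20.65 TPM in WT ipsilateral libraries against 10.81, 13.07 and 10.94 TPM in WT contralateral libraries. Its log2 fold change was 0.32 (adjusted p = 0.2881), but it passed with the mouse as a block (adjusted p = 0.02837, and 0.00964 in WT mice).

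Neither Cd163 nor Mrc1 was called in either genotype, and the difference between the KO and WT responses had an adjusted p of 0.9485 for both. Cd163, the haemoglobin scavenger receptor, had 11.12, 9.291 and 3.941 TPM in KO ipsilateral libraries against 18.4, 13 and 13.98 TPM in KO contralateral libraries, and 12.54, 8.812 and 7.089 TPM in WT ipsilateral libraries against 9.137, 7.88 and 5.213 TPM in WT contralateral libraries. All KO ipsilateral libraries lay below all KO contralateral ones, with a log2 fold change of -0.77 ± 0.32 (SE; adjusted p = 0.1536, and 0.03033 with the mouse as a block); 20.2% of all genes were apart in that direction. Mrc1, the mannose receptor, had log2 fold changes of -0.42 in KO mice (adjusted p = 0.4329) and 0.71 in WT mice (adjusted p = 0.1589, and 0.03356 with the mouse as a block). Ms4a7, a membrane protein of border macrophages, was at most 3.022 TPM and was not called. Cd163 and Mrc1 were given more room after their values were seen.

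**Figure D4:**
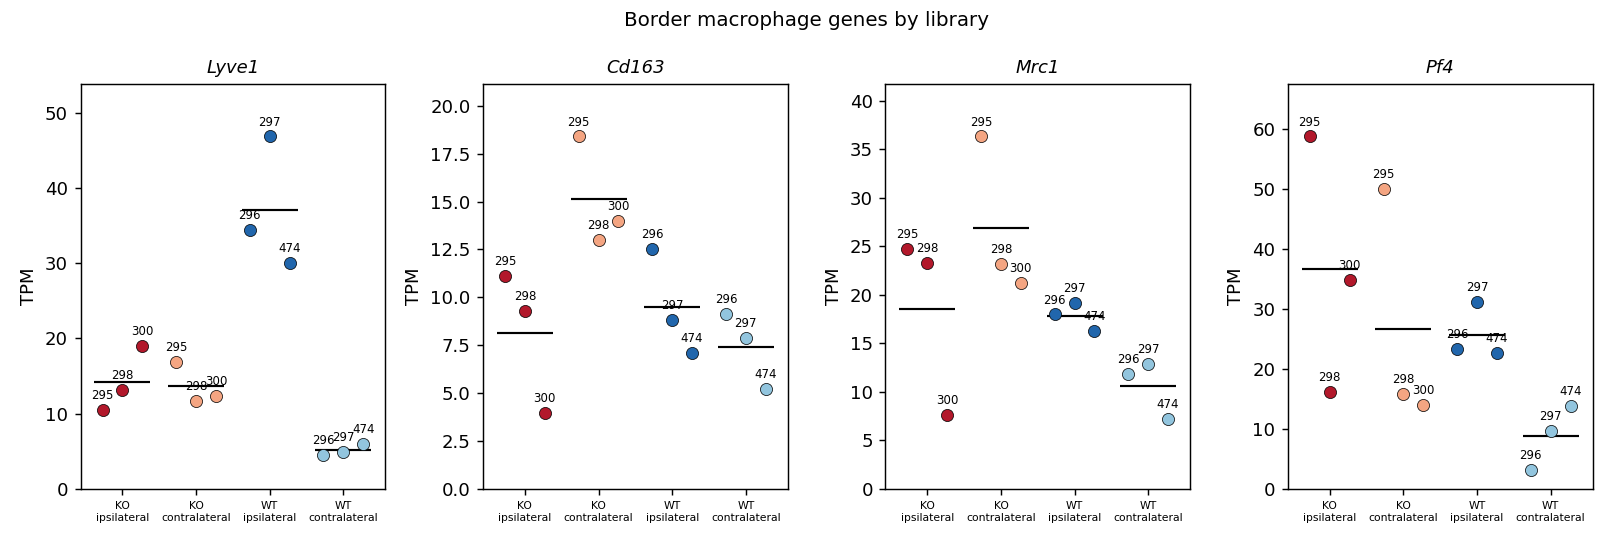
TPM of 4 border macrophage genes, one point per library labelled by mouse, with the group mean as a line. Lyve1 lies between 30.03 and 46.89 TPM in WT ipsilateral libraries, above every other library, and Cd163 lies lower in KO ipsilateral than in KO contralateral libraries.

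Of the 5 monocyte and neutrophil genes, Plac8 and Ccr2 were called higher on the ipsilateral side. Plac8, a small cysteine-rich protein of monocytes and neutrophils, had 3.737, 2.485 and 2.443 TPM in KO ipsilateral libraries against 0.8991, 0.4882 and 0.6871 TPM in KO contralateral libraries, and 1.136, 1.95 and 0.9176 TPM in WT ipsilateral libraries against 0.5195, 0 and 0 TPM in WT contralateral libraries. All ipsilateral libraries lay above all contralateral ones, as they did for 5.84% of all genes. WT libraries held few reads of it, 25 counts on the ipsilateral and 3 on the contralateral side, and the 0 counts of mice 297 and 474 allow up to 0.239 and 0.24 CPM. The ratio of these counts per library size was 7.98, with an exact 95% interval of 2.44 to 41.3 that covers counting error only. The log2 fold change was 2.502 ± 0.52 (SE) over both genotypes (adjusted p = 0.004297) and 2.81 in WT mice (adjusted p = 0.03621), and depends on the prior count. The WT call held in 5 of 18 fits that leave out a library or mouse, with adjusted p-values up to 0.2746, and the call over both genotypes in all 18.

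Ccr2, the receptor through which monocytes follow the chemokine Ccl2, had 4.885, 2.221 and 1.014 TPM in KO ipsilateral libraries against 1.388, 0.8105 and 0.2395 TPM in KO contralateral libraries, and 0.6465, 1.862 and 1.295 TPM in WT ipsilateral libraries against 0.04312, 0.4181 and 0.5168 TPM in WT contralateral libraries. It was higher on the ipsilateral side in all 6 mice. Ccr2 had a log2 fold change of 1.88 ± 0.54 (SE; adjusted p = 0.01955), a call lost without WT ipsilateral 297, KO ipsilateral 295, mouse 297 or mouse 298 (adjusted p up to 0.08815). Lyz2, lysozyme of the myeloid lineage, was the most abundant gene of the set, with 376.3, 222.4 and 198.4 TPM in KO ipsilateral libraries against 391.9, 127.7 and 93.31 TPM in KO contralateral libraries, and 53.26, 224 and 222.7 TPM in WT ipsilateral libraries against 51.61, 64.6 and 72.07 TPM in WT contralateral libraries. Its libraries were nearly level between the sides in mice 295 and 296, with log2 ratios of CPM of 0.006 and -0.003. Lyz2 was not called (log2 fold change 0.94, adjusted p = 0.08393), although with the mouse as a block its adjusted p was 0.02292; a near-identical lysozyme gene can share its reads, and how the authors' counting split them is not given in the sources used here.

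The neutrophil genes S100a8 and S100a9, partners in calprotectin, were higher on the ipsilateral side in all 6 mice but differed far more between mice. S100a8 had 15.72, 19.79 and 10.09 TPM in KO ipsilateral libraries against 2.888, 13.44 and 1.261 TPM in KO contralateral libraries, and 102, 13.42 and 4.911 TPM in WT ipsilateral libraries against 36.54, 0.7702 and 0.3662 TPM in WT contralateral libraries. S100a9 had 74.08, 60.64 and 30.3 TPM in KO ipsilateral libraries against 4.936, 53.11 and 3.772 TPM in KO contralateral libraries, and 305.3, 38.16 and 18.66 TPM in WT ipsilateral libraries against 123.6, 7.168 and 3.895 TPM in WT contralateral libraries. These genes were likewise singled out after their values were seen. Mouse 296 was highest for both genes on both sides, and the contralateral library of KO mouse 298 also stood above its group. Log2 fold changes were 1.58 ± 0.96 (SE) for S100a8 (adjusted p = 0.2214) and 1.47 ± 0.93 (SE) for S100a9 (adjusted p = 0.2392). With the mouse as a block the adjusted p-values were 0.006289 for S100a8 and 0.01257 for S100a9. A further 13 neutrophil markers summed to 192.6 TPM in WT ipsilateral 296 and 89.04 TPM in WT contralateral 296, against between 13.11 and 60.36 TPM in the other 10 libraries.

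**Figure D5:**
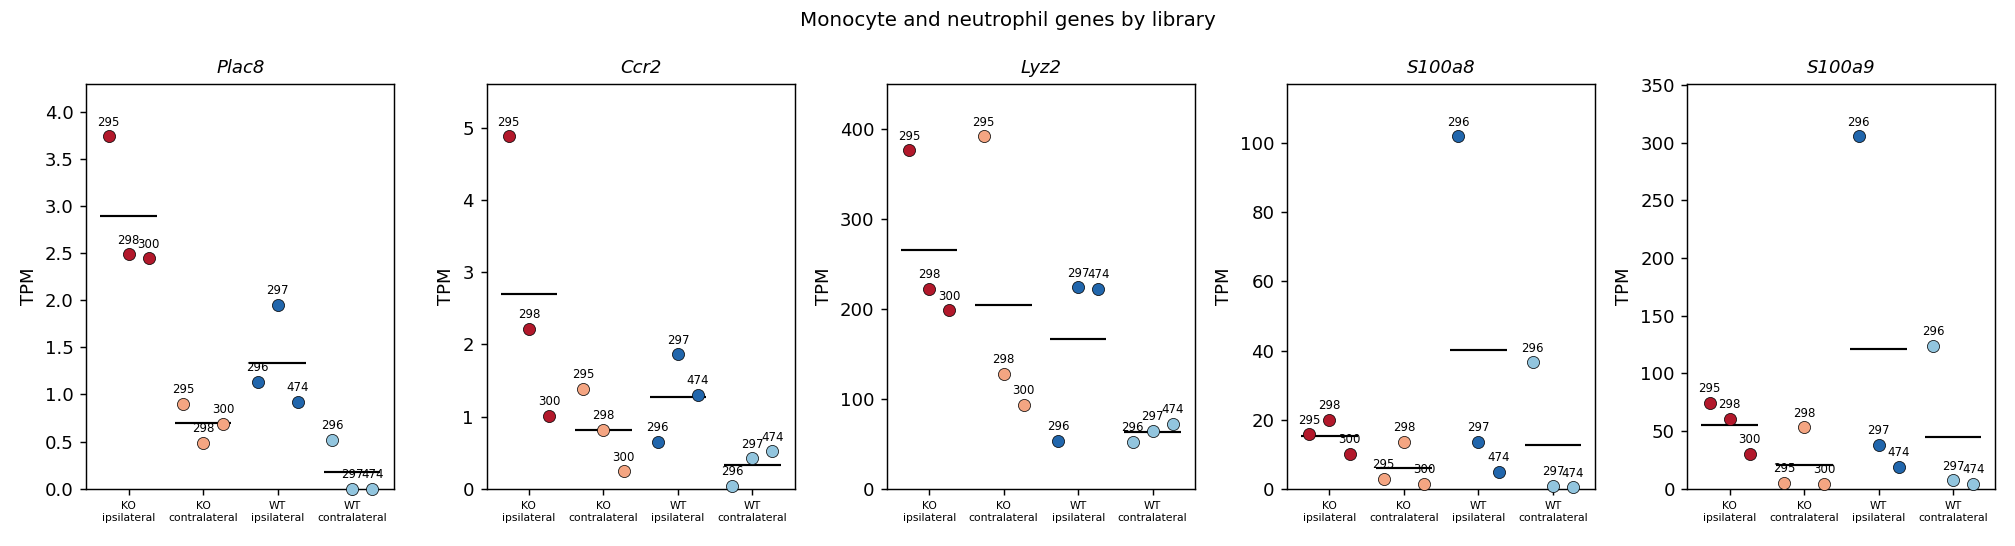
TPM of the monocyte and neutrophil genes, one point per library labelled by mouse, with the group mean as a line. Plac8 lies higher in every ipsilateral library than in any contralateral one, and S100a8 and S100a9 reach 102 and 305.3 TPM in the WT ipsilateral library of mouse 296.

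Between genotypes on the contralateral side, none of the 38 genes was called, where 0.0835% of all genes were called higher and 1.41% lower. All 27 microglial and all 6 border macrophage genes had a log2 fold change above 0, as did 49.8% of all genes. So did 3 of the 5 monocyte and neutrophil genes, and the other 2 were below 0. Most microglial genes varied together over the libraries, so counts of them are not counts of independent results. An unadjusted p under 0.05 was reached by 5 of the 27 microglial and all 6 border macrophage genes, against 14.3% of all genes in either direction. All KO libraries lay above all WT libraries for 15 of the 27 microglial genes (7 identity and 8 shared) and 5 of the 6 border macrophage genes, against 11% of all genes. DESeq2 called 3 genes, all border macrophage genes, Mrc1, Lyve1 and F13a1, where it called 0.767% of all genes higher.

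P2ry12, an example singled out after its values were seen, was not called (log2 fold change 1.22, adjusted p = 0.2916). It had 62.63, 54.34 and 44.51 TPM in KO contralateral libraries against 13.64, 26.56 and 23.36 TPM in WT contralateral libraries. Median log2 fold changes over the sets were 1.12 for identity genes, 0.805 for shared genes and 1.29 for border macrophage genes, beside -0.002 over all genes tested. Oligodendrocyte markers were lower in the same KO libraries, 5 of 10 of them called, with a median log2 fold change of -1.43. Astrocyte markers had a median of 0.46, with 0 of 10 called, 5 of 10 at an unadjusted p under 0.05 and 6 of 10 with all KO libraries above all WT libraries; 3 of 6 mural markers were also apart in that direction. The part of these markers in the differences was not tested.

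On the ipsilateral side the result depended on KO ipsilateral 300. With it, edgeR and DESeq2 called 0 of the 27 microglial genes, 2 of which had an unadjusted p under 0.05, and the median log2 fold change was 0.685 for identity genes and 0.27 for shared genes. Without it, 4 identity genes were called higher in KO than in WT mice (2.27% of all genes were called higher and 1.31% lower): P2ry12 at a log2 fold change of 1.48 (adjusted p = 0.02284), P2ry13 at 1.153 (adjusted p = 0.02186), Tmem119 at 1.46 (adjusted p = 0.04418) and Selplg at 1.56 (adjusted p = 0.02186). KO ipsilateral 300 held the lowest level of 8 of the 10 identity genes, so leaving it out raises the KO mean of those genes. The 4 calls rest on that choice and do not by themselves show a difference between the genotypes. None of the 17 shared genes was called in that fit, nor was any at an unadjusted p under 0.05 with the library included. In the fit without KO ipsilateral 300, P2ry12, P2ry13, Selplg, Mrc1 and Lyve1 were also called higher in KO mice on the contralateral side (0.164% of all genes were called higher). That library is not among those compared there. Without KO contralateral 300 or without mouse 300, 0 of the 38 genes were called on the contralateral side, and 0 and 1 of all genes. Astrocyte markers, 8 of 10 of which were called higher in KO ipsilateral libraries, moved with this comparison, and their part in it was not tested.

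Genes that accompany these cells were read from further lists. Over both genotypes, 17.1% of all genes were called higher on the ipsilateral side and 16.1% lower. Of 17 genes induced in activated microglia, 13 were called higher on the ipsilateral side over both genotypes and 1 lower: the cystatin Cst7 had a log2 fold change of 4.62 (adjusted p = 0.000182), the integrin chain Itgax one of 3.1 (adjusted p = 0.000229), and Apoe, the apolipoprotein that astrocytes also make, fell by 1.001 on the log2 scale (adjusted p = 0.000344). Cst7 had 10.81, 7.081 and 2.367 TPM in KO ipsilateral libraries against 0.5807, 0.5255 and 0.2219 TPM in KO contralateral libraries, and 5.502, 9.971 and 9.136 TPM in WT ipsilateral libraries against 0, 0.2711 and 0.2578 TPM in WT contralateral libraries. Its counts were 2, 2 and 1 in KO contralateral and 0, 1 and 1 in WT contralateral libraries. The size of its fold change therefore depends on the prior count.

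Of 11 listed ligands, not all of them for a receptor named above, 8 were called higher and 0 lower, against 17.1% and 16.1% of all genes. The strongest by p were Ccl2 at 2.57 (adjusted p = 0.000225) and Ccl12 at 3.21 (adjusted p = 0.000344), both ligands of Ccr2, and Csf1, a ligand of Csf1r, at 0.97 (adjusted p = 0.000406). Ccl2 had 138.7, 134.8 and 117.3 TPM in KO ipsilateral libraries against 50.82, 26.64 and 20.76 TPM in KO contralateral libraries, and 237.2, 111.6 and 123 TPM in WT ipsilateral libraries against 27.13, 11.04 and 19.65 TPM in WT contralateral libraries. For Ccl2, ipsilateral and contralateral libraries were apart in both genotypes. Not every ligand rose. Cx3cl1, the ligand of Cx3cr1, had 30.65, 24.4 and 29.23 TPM in KO ipsilateral against 43.71, 40.61 and 35.35 TPM in KO contralateral libraries. In WT mice it had 53.77, 26.93 and 40.64 TPM on the ipsilateral and 41.18, 43.32 and 28.46 TPM on the contralateral side. Levels of Il34 overlapped between the sides in both genotypes.

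Other monocyte genes were called higher for 7 of the 10 tested of 11, led by Thbs1 at 3.05, Vcan at 1.16 and Chil3 at 3.06 (adjusted p = 0.000315, 0.000503 and 0.00075). Ly6c2 of the same list overlapped between the sides in both genotypes. It had 3.8, 3.737 and 2.555 TPM in KO ipsilateral against 2.194, 3.499 and 2.475 TPM in KO contralateral libraries. In WT mice it had 4.997, 1.889 and 2.843 TPM on the ipsilateral and 6.942, 4.194 and 1.855 TPM on the contralateral side. Only 6 of 13 further neutrophil markers could be tested, and 1, Mmp9, was called (log2 fold change 1.61, adjusted p = 0.009714). Of 16 further microglial genes, 15 were tested, 7 were called higher and 2 lower. Of 10 further border macrophage genes 2 were called higher, Dab2 at 0.97 (adjusted p = 0.000613) and Cd36 at 1.17 (adjusted p = 0.007467). The shares called among the further border macrophage and neutrophil genes lay near the 17.1% of all genes called higher. Csf1, Ccl2 and Thbs1 are also made by astrocytes, and their source was not tested. Vcan had between 214 and 418 counts in contralateral libraries, where Ccr2 had between 1 and 31, and the source of Vcan was not tested either.

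Some levels carry a limit of annotation. Exons of Cx3cr1, P2ry12, Csf1r and F13a1 overlap an antisense gene and those of Itgam a gene on the same strand, and whether counting used strand is not given in the sources used here. Relative to the median gene of a library, the counts of Ly86, Irf8 and Selplg came to 0.275, 0.327 and 0.487 of the reads that RPKM and annotated exon length imply, and those of F13a1, Ptprc and Itgam to 0.583, 0.647 and 0.694; which length the authors used is not stated, and levels of these genes per length carry that limit.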

How the data were processed

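The authors deposited, for each of the 12 libraries, read counts per gene with RPKM and TPM; sequencing was on an Illumina HiSeq 2500 per the labels' protocols, and the genome was mm10 per the submitters' processing notes. No source used here names the aligner, the counter or its use of strand. Counts were tested with edgeR 4.0.16 in R 4.3.3: filterByExpr with a minimum count of 10, TMM scaling, a robust quasi-likelihood fit with 4 group terms to all 12 libraries (8 residual degrees of freedom), and Benjamini-Hochberg adjustment over 15571 genes. A gene is called at an adjusted p under 0.05. Standard errors are the log2 fold change over the square root of F. Deposited TPM served for levels, and deposited RPKM for 1 check of the counts. The members and all lists were chosen with earlier results of these data known.

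Values of every library are given for the most abundant gene and the 3 of smallest p in each set, for called genes (up to 6 more per set) and for genes called between genotypes; from the other lists, up to 3 genes of smallest p. Libraries with the same number come from the same mouse by their titles; their deviations from the group means correlated at 0.393, 0.486 and 0.207 for KO mice 295, 298 and 300, and 0.696, -0.022 and 0.424 for WT mice 296, 297 and 474. Nothing in the labels says more of how the animals were drawn, so p-values measure the spread between these mice. Replicates differed by more than sampling noise (chi-square per degree of freedom between 11.1 and 68.0). Alternatives were DESeq2 1.42.0, limma 3.58.1, other scalings, filters and pseudocounts, the mouse as a block, and each library or mouse left out; fits were tested on simulated counts. Promoters came from RefSeq (GRCm38.p6). How far the targeted gene was deleted is left unreported.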

Additional observations from a re-analysis of the deposited data

Results flagged for a closer look

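Cd163 moved in opposite directions in the genotypes: it was lower on the ipsilateral side in all 3 KO mice and higher in all 3 WT mice. On the log2 scale the difference between the KO and WT responses was -1.085 (edgeR quasi-likelihood test, unadjusted p = 0.03281, adjusted p = 0.9485), so that it did not pass the correction over all genes. Mouse 300 had the lowest ratio, -1.42, against -0.65 in mouse 295 and -0.38 in mouse 298, while the ratios of WT mice 296, 297 and 474 were 0.40, 0.22 and 0.26.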

How the results depend on the processing

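No called log2 fold change of the 38 genes changed sign under any alternative run. The counts of called genes moved as follows. For KO ipsilateral against KO contralateral libraries the count of 1 became 8 with DESeq2, 2 with limma-voom, with log2(TPM + 1), with a filter of at least 1 CPM and with only those groups in the fit, and 14 without KO ipsilateral 300 and both libraries of mouse 296, a fit added after seeing the data; with a library or mouse left out it lay between 0 and 5, with 3 without WT contralateral 296 and 4 without mouse 296. For WT ipsilateral against WT contralateral libraries the count of 11 became 19 with only those groups and 22 in that added fit, and lay between 2 (without mouse 297) and 22 (without KO ipsilateral 300). Over both genotypes the count of 18 became 28 in the added fit and lay between 11 (without mouse 297) and 24. Between KO and WT ipsilateral libraries the count of 1 became 6 in the added fit and 0 with only those groups, and lay between 0 and 5. Between KO and WT contralateral libraries the count of 0 became 3 with DESeq2 and with only those groups, 1 with either pseudocount and 7 in the added fit, and lay between 0 and 5. The difference of the responses went to 1, Lyve1, with log2(TPM + 0.1) and with DESeq2 adjusted over all genes, and was 0 in the other fits, where DESeq2 with its independent filtering gave 4 of the 38 genes an adjusted p. That DESeq2 adjustment was added after seeing the data; it also gave 8 in KO mice and 3 between the contralateral libraries. The causes were not tested.

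With the mouse as a block, which pairs the hemispheres of an animal, KO mice gave 10 calls, WT mice 25 and both together 26; the difference of the responses gave 0. Depth limited Plac8, with 25 counts in WT ipsilateral and 3 in WT contralateral libraries. It also limited Cst7 of the further lists, with at most 2 counts in any contralateral library.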
